A study of Mus musculus with 6 samples.

Results

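The Clec genes are the mouse genes whose symbols name them as members of the C-type lectin domain family, and they were examined here in RNA described in the methods as that of sorted tumor-associated macrophages (TAMs) and in the sample labels as that of tumor tissue. Every gene of the count table whose symbol starts with Clec, a number and a letter was taken, except those marked as pseudogenes by -ps in the symbol, which gave 29 of the 22377 genes. Of these, 15 were well counted (a mean of at least 100 reads over the 6 libraries), 5 passed the filter on low counts with a smaller mean, and 9 had too few reads to be tested. Relative to the libraries labelled wt, 17 of the 20 tested members had lower estimates in the libraries labelled ko. So had 6656 of the 13884 genes tested in all. None of the members passed an adjusted p of 0.05. The count of members with lower estimates was 14 with scaling by library totals only, 13 on log2 FPKM and 6 with scaling to macrophage markers.

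C-type lectins bind sugars, lipids, proteins or parts of dead cells through a shared domain, and in myeloid cells many of them are surface receptors. Activating members such as Mincle (Clec4e), Dectin-2 (Clec4n) and Dectin-1 (Clec7a) recruit the kinase Syk, either through the adaptor FcRγ (Fcer1g) or DAP12 (Tyrobp) or through a motif in their own tail, and signal on through Card9 to NF-kB. Inhibitory members such as DCIR (Clec4a2) and MICL (Clec12a) carry a tail motif that recruits phosphatases. Macrophages and dendritic cells are known for using these receptors to sense fungi, mycobacteria and dying cells.

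The study asked which genes depend on nucleophosmin (Npm1), and compared 3 libraries titled wt with 3 titled ko, whose treatment label reads knockdown. The methods describe the material as CD45+ CD11b+ F4/80+ macrophages, sorted from subcutaneous tumors of Lewis lung carcinoma (LLC), a mouse lung tumor cell line, grown for 2 weeks in Npm1+/+ and Npm1+/- mice that were male and female and 6 to 8 weeks old at implantation. All mice carried the same tumor cells, the Npm1 change was in the whole animal and not in macrophages alone, and the strain of these mice, the age per library and any pooling were not given in the sources used here. The sample labels instead give tumor tissue as the source, TRIzol extraction and a library protocol for small RNA, and the sources were not reconciled here.

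The libraries held 36550775 to 38147320 counted reads. Npm1 itself, the check of the labels, had 77.1, 206 and 218 FPKM (reads scaled to gene length and library total) in wt replicates 1, 2 and 3 and 270, 333 and 193 FPKM in ko replicates 1, 2 and 3. The libraries labelled ko were therefore not lower in Npm1 RNA, with a log2 fold change of 0.51 (0.16 without wt replicate 1), and the groups are called by their labels throughout. Of the 13884 genes tested with edgeR's quasi-likelihood test, 0 had an adjusted p under 0.05 and 2112 an unadjusted p under it, against 108 adjusted calls by DESeq2 and 0 by limma on log2 FPKM. The library of wt replicate 1 stood apart from the other 5 on the first principal component of log2 CPM (counts relative to the TMM-scaled library size), at -108 against -4.54 to 52.0, a component that held 68.0% of the variance. The labels do not say that the replicates came from separate animals, and the legend of a heatmap of this comparison gives fewer mice per group than there are libraries, so n counts libraries and p-values measure only the spread between these samples, which may be technical.

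The 10 macrophage markers examined were all expressed, with a summed level of 10599 to 13547 CPM in the wt libraries and 6294 to 10963 CPM in the libraries labelled ko. Cd14 and Itgam made up most of that sum. All 10 had negative log2 fold changes, with a median of -0.53, as had the 9 tested neutrophil markers, also with a median of -0.53. All of the tested markers of fibroblasts (8), T cells (7) and NK cells (6) had higher estimates in the libraries labelled ko, with medians of 1.24, 1.26 and 0.90. The summed T cell and NK cell markers were highest in ko replicate 2, at 245 and 136 CPM, and wt replicate 3, at 109 and 64.4 CPM, lay above ko replicates 1 (99.99 and 58.2 CPM) and 3 (88.4 and 57.7 CPM). Summed fibroblast markers ranged from 24.0 to 478 CPM in the wt libraries, lowest in replicate 1, and from 345 to 688 CPM in the others. In bulk RNA, fewer cells of a type and less RNA per cell cannot be told apart, and the part of these markers in the Clec values was not tested.

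**Figure D1:**
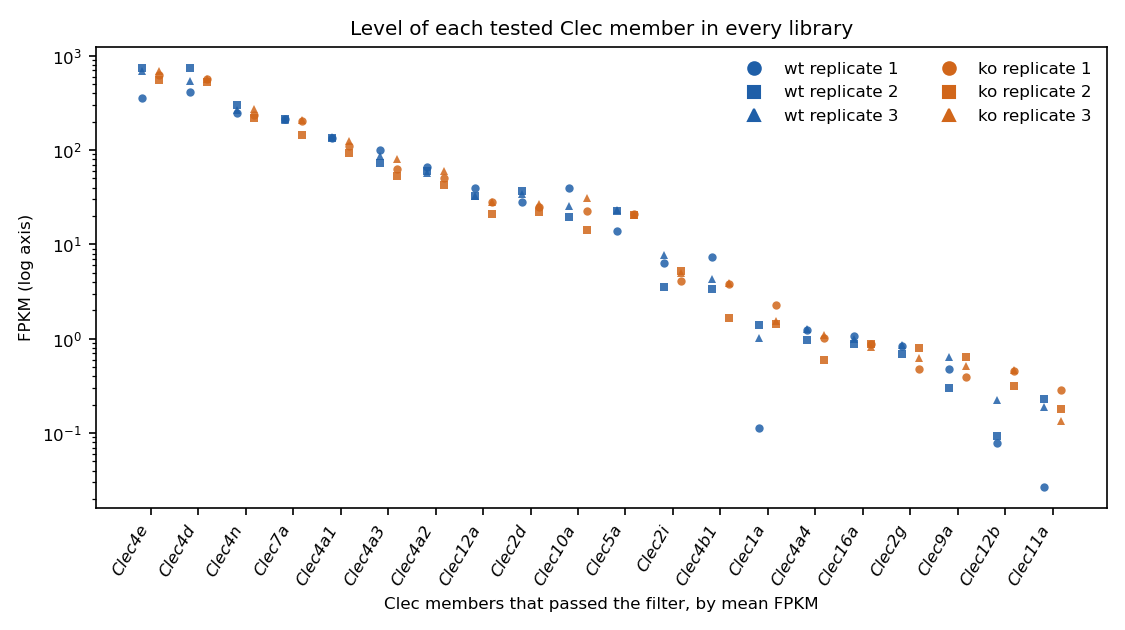
Level of the 20 tested Clec members in each library in FPKM on a log axis, ordered by mean FPKM, with 1 point per library, wt in blue, ko in orange and the replicate number as the shape. Clec4e and Clec4d lie highest, Clec11a at the low end stays under 1 FPKM, and wt replicate 1 falls far below the other libraries for Clec1a.

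Mincle and its neighbor Clec4d were the most abundant Clec transcripts. Clec4e and Clec4d together took 51.3 to 68.3% of the Clec reads of a library, with the lowest share in wt replicate 1. Per gene length, the order was the same in all 6 libraries below these first places: Clec4n, Clec7a, Clec4a1, Clec4a3 and Clec4a2 followed in that order in each. The upper end was not ordered, since Clec4d exceeded Clec4e in wt replicates 1 and 2 and Clec4e exceeded Clec4d in the other 4 libraries. Clec12a, Clec2d, Clec10a and Clec5a followed with ranks that changed from library to library. Clec4e had the 130th and Clec4d the 142nd highest mean FPKM of all genes in the table.

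Most members lie in a few megabases of chromosome 6. Of the 28 members with a position in the GENCODE annotation of GRCm38, 22 were on chromosome 6. One group of 9, the Dectin-2 cluster, spans chr6:122921848-123289870 and holds Clec4a1, Clec4a3, Clec4a4, Clec4b1, Clec4a2, Clec4b2, Clec4n, Clec4d and Clec4e. The other, in the NK gene complex, spans chr6:128887588-129472779 and holds 11 members, among them Clec2d, Clec12a, Clec12b, Clec9a, Clec1a and Clec7a. Such clusters hold near copies, so the stretches of 50 bases that a transcript shares with another Clec gene were counted. Genes without a Clec symbol were not compared. They made up 15.7% of the longest Clec4a4 transcript and 7.53% of that of Clec4a2, 9.73% for Clec4b1, 4.90% for Clec2i, 3.81% for Clec2g and 1.98% for Clec2d. In stretches of 100 bases, the shares were 9.45% for Clec4a4, 2.69% for Clec4a2 and 0 for Clec4b1, Clec2g and Clec2d. How the counting treated such reads was not given in the sources used here, so counts of these genes are uncertain. Clec9a and Clec1b overlap on the same strand and share 4.19 and 3.16%. Clec4e, Clec4d, Clec4n, Clec7a, Clec4a1, Clec4a3, Clec12a, Clec10a and Clec5a shared none with another Clec gene. Clec7a is annotated as a polymorphic pseudogene there and Clec2f as a transcribed pseudogene.

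The promoters of 4 members are shown because they are the most counted pair, the inhibitory receptor with the largest negative estimate and the 1 member with a STAT match. Each line is the 250 bases before the RefSeq start on GRCm38.p6, read on the strand of the gene, from chr6:123289872-123290121 (minus strand) for Clec4e, chr6:123261857-123262106 (plus) for Clec4d, chr6:129349994-129350243 (plus) for Clec12a and chr6:123122440-123122689 (plus) for Clec4a2, with motif matches in capitals.
Clec4e: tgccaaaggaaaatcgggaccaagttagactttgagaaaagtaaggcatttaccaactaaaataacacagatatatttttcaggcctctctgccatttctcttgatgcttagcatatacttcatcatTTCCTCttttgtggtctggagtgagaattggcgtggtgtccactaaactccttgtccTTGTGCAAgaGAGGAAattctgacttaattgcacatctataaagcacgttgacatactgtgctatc
Clec4d: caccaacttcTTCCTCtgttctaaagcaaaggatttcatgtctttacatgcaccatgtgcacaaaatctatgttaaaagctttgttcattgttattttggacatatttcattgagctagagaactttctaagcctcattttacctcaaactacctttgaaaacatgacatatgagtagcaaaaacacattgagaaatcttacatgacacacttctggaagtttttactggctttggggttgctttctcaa
Clec12a: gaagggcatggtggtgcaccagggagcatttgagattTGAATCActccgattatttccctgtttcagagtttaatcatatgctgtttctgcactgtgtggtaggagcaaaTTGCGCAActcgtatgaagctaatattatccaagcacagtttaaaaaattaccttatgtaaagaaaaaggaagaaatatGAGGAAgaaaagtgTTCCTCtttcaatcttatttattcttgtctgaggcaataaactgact
Clec4a2: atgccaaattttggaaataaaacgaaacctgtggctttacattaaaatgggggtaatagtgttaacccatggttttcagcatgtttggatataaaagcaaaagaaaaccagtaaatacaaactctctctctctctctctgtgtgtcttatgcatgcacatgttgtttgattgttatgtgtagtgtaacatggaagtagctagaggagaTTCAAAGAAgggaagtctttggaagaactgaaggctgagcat
Both strands were searched for GAGGAA, the core of sites of PU.1, the myeloid lineage factor, for TTGCNNAA of C/EBP factors, TTCNNNGAA of STAT factors, GGANTTTCC of NF-kB and TGANTCA of AP-1, of which the PU.1, STAT and NF-kB letters can share bases. Of the 23 member genes with a RefSeq promoter, 13 held GAGGAA, which 23.25% of all 32851 promoters held. TTGCNNAA was in 4 (Clec4e, Clec12a, Clec11a and Clec16a) against 9.56% of all promoters, and TGANTCA in 3 against 6.75%. TTCNNNGAA was in Clec4a2 alone of the 23, against 7.02% of all promoters, and GGANTTTCC in Clec2l alone, against 1.07%. A match is a run of letters and not a measured site.

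Among the activating receptors, the 7 tested members all had negative log2 fold changes, from -0.80 to -0.03, with a median of -0.17. None of them had an unadjusted p under 0.05, and for 4 of the 7 (Clec4e, Clec4d, Clec5a and Clec9a) the sign turned on FPKM and with a left-out library.

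Clec4e, which senses mycobacterial glycolipid and the nuclear protein SAP130 of dying cells, had 354, 737 and 682 FPKM in wt replicates 1, 2 and 3 and 622, 557 and 684 FPKM in ko replicates 1, 2 and 3. The wt libraries thus held both the lowest and the highest value, and the groups overlapped. The mean was 1873 ± 648 CPM in wt and 1793 ± 332 CPM in ko (SD, n = 3), for a log2 fold change of -0.06 ± 0.28 (SE) and an adjusted p of 0.908 by edgeR. Without wt replicate 1, the log2 fold change was -0.32, and with scaling by library totals only it was 0.07.

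Clec4d, which pairs with Mincle and with FcRγ, showed the same spread. Its level was 408, 742 and 543 FPKM in wt and 568, 532 and 561 FPKM in ko, so the libraries labelled ko lay between the wt extremes. The log2 fold change was -0.17 ± 0.23 (SE), with an adjusted p of 0.664 by edgeR, and -0.35 without wt replicate 1. It was 0.01 by limma on log2 FPKM and -0.028 by edgeR with scaling by library totals only.

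Clec4n, the mannan receptor Dectin-2, had 245, 302 and 267 FPKM in wt and 237, 220 and 272 FPKM in ko. Only wt replicate 2 lay above all libraries labelled ko. Its log2 fold change was -0.30 ± 0.17 (SE), with an adjusted p of 0.372 by edgeR, and it was -0.18 without ko replicate 2 and -0.46 without ko replicate 3.

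Clec7a, the β-glucan receptor Dectin-1, was even across 5 libraries. Its level was 212, 213 and 209 FPKM in wt and 205, 144 and 209 FPKM in ko, and ko replicate 2 alone was low. The log2 fold change was -0.32 ± 0.20 (SE), with an adjusted p of 0.402 by edgeR, and it was -0.12 without that library.

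Clec5a, which pairs with DAP12 and is known from flavivirus infection, had 13.9, 22.3 and 22.9 FPKM in wt and 20.8, 20.6 and 20.7 FPKM in ko. The 3 ko values were nearly equal and lay inside the wt range. The log2 fold change was -0.07 ± 0.19 (SE), with an adjusted p of 0.841 by edgeR, and -0.26 without wt replicate 1.

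Clec9a, which binds actin filaments of dead cells and marks cross-presenting dendritic cells, was counted with 38 to 81 reads per library. It had 0.477, 0.303 and 0.646 FPKM in wt and 0.389, 0.640 and 0.515 FPKM in ko, and the groups overlapped. Its log2 fold change was -0.03 ± 0.38 (SE). Of the 10 dendritic cell markers tested, 6 had lower and 4 higher estimates, with a median of -0.09, and Xcr1, a chemokine receptor of the same dendritic cells, had 7 to 38 reads. Clec4b1, the receptor DCAR, was just above the limit for well counted, with 48 to 221 reads per library. On the log2 scale the difference was -0.80 ± 0.47 (SE), and -0.39 without wt replicate 1.

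Clec1b, the podoplanin receptor of platelets, was not tested. It had 27, 0 and 4 reads in wt and 10, 4 and 4 reads in ko, so most of its reads were in wt replicate 1. A count of 0 allows up to 3 reads, which is 0.0716 to 0.0846 CPM in these libraries and covers counting error only. Among 8 platelet markers, 3 were tested, with a median of -0.22, and they were unlike in level. The chemokine genes Pf4 and Ppbp had 5722 to 7902 and 5115 to 8986 reads per library, Itga2b had 25 to 59, Treml1 had 3 to 13, and the glycoprotein genes Gp9, Gp1ba, Gp1bb and Gp5 had 0 to 4.

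**Figure D2:**
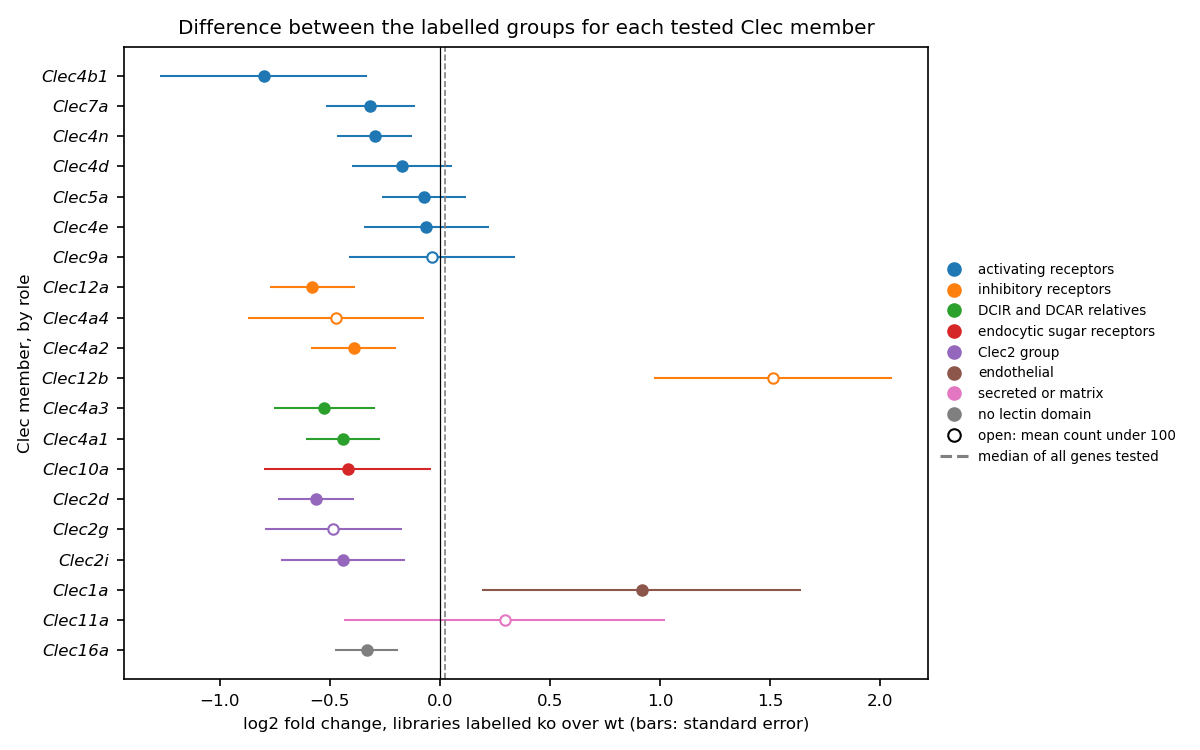
Log2 fold change of the libraries labelled ko over wt for the 20 tested members, grouped by role, with bars for the standard error, open points for members with a mean count under 100 and a dashed line at the median of all genes tested (0.02). The estimates lie left of 0 for 17 members (14 with scaling by library totals only and 6 with scaling to macrophage markers) and right of 0 for Clec12b, Clec1a and Clec11a.

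The inhibitory receptors included the member with the largest positive estimate and, among well-counted members, the one with the second lowest. Clec12a, which binds uric acid crystals and restrains myeloid activation, had 39.9, 32.7 and 32.7 FPKM in wt and 28.1, 21.2 and 28.2 FPKM in ko. Every library labelled ko was lower than every wt library, with ko replicate 2 the lowest. The mean was 82.3 ± 11.3 CPM in wt and 55.1 ± 12.4 CPM in ko (SD, n = 3), for a log2 fold change of -0.58 ± 0.19 (SE), lower in 3 of 3 libraries labelled ko. The adjusted p was 0.328 by edgeR, and the alternatives gave 0.0344 to 0.793. That low end was from DESeq2 without wt replicate 1 and ko replicate 3, a fit chosen after seeing the data. DESeq2 on all 6 libraries gave 0.119. The Clec12a estimate stayed negative in every alternative, from -0.72 to -0.12.

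Clec4a2, the receptor DCIR, had 65.6, 60.4 and 57.2 FPKM in wt and 51.0, 42.3 and 59.8 FPKM in ko. The groups overlapped through ko replicate 3 alone. Its log2 fold change was -0.39 ± 0.19 (SE), with an adjusted p of 0.341 by edgeR, and it was -0.23 without ko replicate 2 and -0.60 without ko replicate 3. Clec4a4, a near copy known as DCIR2, had 24 to 53 reads per library and a log2 fold change of -0.47 ± 0.40 (SE).

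Clec12b, a lesser known inhibitory relative, was the only tested member whose libraries labelled ko all lay above wt. It had 6, 7 and 17 reads in wt and 34, 23 and 35 reads in ko, which is 0.274 ± 0.157 and 0.790 ± 0.214 CPM (SD, n = 3). The log2 fold change was 1.51 ± 0.54 (SE), higher in 3 of 3 libraries, with an adjusted p of 0.328 by edgeR and 0.0868 to 0.701 over the alternatives. That low end was from a fit chosen after seeing the data. No adjusted p for Clec12b came from DESeq2 on all 6 libraries. The reads were few, and wt replicate 3 held the most of the wt libraries.

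The relatives of DCIR encoded beside it differed from it in level and also had negative log2 fold changes in the main fit. Clec4a1, known as DCIR4, had 135, 133 and 136 FPKM in wt and 109, 93.9 and 124 FPKM in ko. The wt libraries were close to each other and each lay above every library labelled ko. The mean was 221 ± 4.70 CPM in wt and 163 ± 35.7 CPM in ko (SD, n = 3). The log2 fold change was -0.44 ± 0.17 (SE), with an adjusted p of 0.328 by edgeR and 0.00891 to 0.948 over the alternatives. That low end was from DESeq2 without wt replicate 1 and ko replicate 3, a fit chosen after seeing the data. DESeq2 on all 6 libraries gave 0.154. The estimate was -0.30 without ko replicate 2 and -0.61 without ko replicate 3. Clec4a3, known as DCIR3, had 99.5, 72.3 and 86.6 FPKM in wt and 62.6, 52.8 and 81.1 FPKM in ko. Here ko replicate 3 lay within the wt range. Its log2 fold change was -0.52 ± 0.23 (SE), with an adjusted p of 0.329 by edgeR, and it was -0.35 without ko replicate 2 and -0.79 without ko replicate 3.

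**Figure D3:**
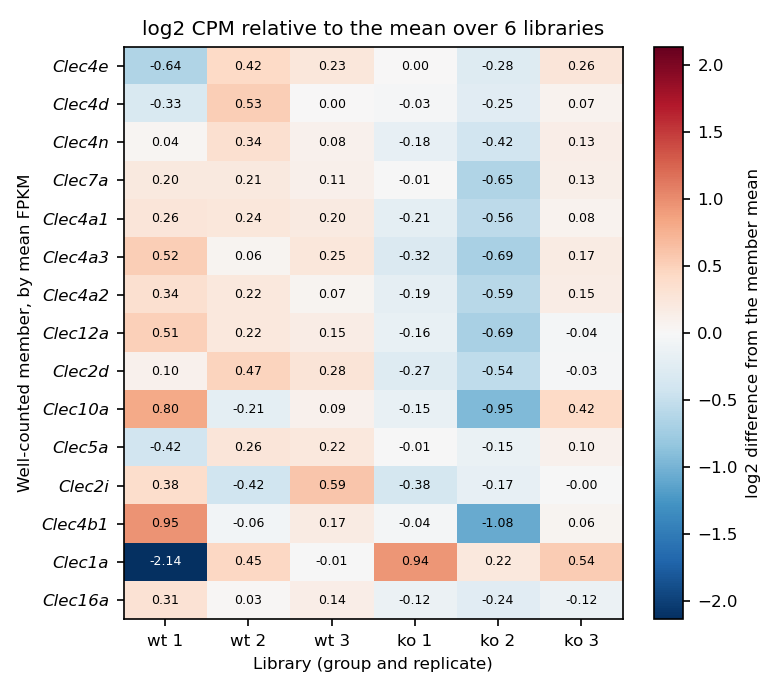
Log2 CPM of the 15 well-counted members in each library minus the mean of the member over the 6 libraries, with blue for lower and red for higher values. The column of ko replicate 2 is the lowest for 10 of the 15 members, wt replicate 1 is the highest for 7 and the lowest for 4 (Clec1a, Clec4d, Clec4e and Clec5a), and ko replicate 3 is never an extreme.

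Clec10a, the galactose-binding endocytic receptor MGL1 often used as a marker of alternatively activated macrophages, varied within both groups. It had 39.4, 19.4 and 25.4 FPKM in wt and 22.8, 14.2 and 31.4 FPKM in ko. The highest value was in wt replicate 1 and the lowest in ko replicate 2. The log2 fold change of -0.42 ± 0.38 (SE), with an adjusted p of 0.527 by edgeR, was -0.08 without wt replicate 1. Clec4g, an endocytic receptor of liver endothelium, had 0 to 14 reads per library and was not tested.

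The Clec2 genes encode ligands of NK cell receptors, and 3 of 7 were tested. Clec2d, the ligand that inhibits NK cells through NKR-P1B, had 28.4, 37.04 and 34.0 FPKM in wt and 24.7, 22.3 and 27.1 FPKM in ko. No library labelled ko reached the lowest wt library. The mean was 52.8 ± 6.96 CPM in wt and 35.7 ± 6.43 CPM in ko (SD, n = 3), for a log2 fold change of -0.56 ± 0.17 (SE), lower in 3 of 3 libraries labelled ko. Its adjusted p was 0.328 by edgeR and 0.00151 to 0.872 over the alternatives, and its estimate stayed negative in every one of them, from -0.83 to -0.08. The 0.00151 was from DESeq2 without wt replicate 1 and ko replicate 3, a fit chosen after seeing the data. DESeq2 on all 6 libraries gave 0.0989. Clec2i had 322 to 707 reads per library and a log2 fold change of -0.44 ± 0.28 (SE). Clec2g, named after its values were seen because its groups did not overlap in CPM, had 48 to 86 reads and a log2 fold change of -0.48 ± 0.31 (SE). In FPKM its groups did overlap, with wt replicate 2 (0.691) below ko replicate 2 (0.791). The estimates of Clec2i and Clec2g turned positive with scaling to the macrophage markers. Clec2e, Clec2f, Clec2l and Clec2m had 0 to 18 reads per library.

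The endothelial members differed in level. Clec1a, which endothelium expresses and which is known to bind fungal melanin, had 14, 172 and 127 reads in wt and 277, 171 and 190 reads in ko. Its lowest value by far was in wt replicate 1. The log2 fold change was 0.92 ± 0.72 (SE), with an adjusted p of 0.472 by edgeR, and was 0.40 without wt replicate 1 and 1.51 without wt replicate 2. Replicate 1 of wt was also lowest in the summed fibroblast markers and in the endothelial markers Cdh5, Tie1, Tek, Emcn, Egfl7 and Robo4. Summed endothelial markers, 31.5 to 41.0 CPM in wt and 31.6 to 35.2 CPM in ko, were mostly Pecam1, which leukocytes also express and which was highest in wt replicate 1. Of the 7 tested endothelial markers, 5 had higher and 2 lower estimates, with a median of 0.80. Clec14a, another endothelial member, had 0, 2 and 2 reads in wt and 1, 2 and 6 reads in ko and was not tested. Whether other cells gave these reads was not tested.

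Clec11a, a secreted growth factor of the bone marrow stroma, had 2, 17 and 14 reads in wt and 21, 13 and 10 reads in ko. The groups overlapped, and the log2 fold change of 0.29 ± 0.73 (SE) turned to -0.20 without wt replicate 1. Clec3b, the plasma protein tetranectin, and Clec4b2 had 0 to 3 reads per library.

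Clec16a carries the family name but has no lectin domain and acts in mitophagy. It had 1.07, 0.873 and 1.00 FPKM in wt and 0.886, 0.885 and 0.819 FPKM in ko, and after TMM scaling, which lowers the libraries with larger factors, its CPM did not overlap between the groups. The mean was 23.7 ± 2.43 CPM in wt and 18.8 ± 0.960 CPM in ko (SD, n = 3), for a log2 fold change of -0.33 ± 0.14 (SE) and an adjusted p of 0.328 by edgeR (0.183 to 0.752 over the alternatives). In FPKM, which are not scaled that way, wt replicate 2 lay below 2 of the libraries labelled ko.

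Over the family, edgeR's quasi-likelihood test called 0 of the 20 tested members at an adjusted p under 0.05. It likewise called 0% of all genes tested. On the 6 libraries, DESeq2 and limma also called 0 members. DESeq2 gave no adjusted p there for Clec11a, Clec12b, Clec1a, Clec2g, Clec4a4, Clec4b1 and Clec9a, so it could not call these. At an unadjusted p under 0.05 by edgeR, 4 members were lower (Clec12a, Clec2d, Clec4a1 and Clec16a), 20% of the 20 tested against 8.31% of all genes. Clec12b alone was higher, 5% of the 20 against 6.9% of all genes. The CPM of the groups did not overlap for 5 members with ko below wt (those 4 and Clec2g), 25% against 12.6% of all genes, and for 1 with ko above wt, 5% against 13.3%. In FPKM, the groups overlapped for Clec16a and Clec2g. The count of lower members at an unadjusted p went from 4 to 2 (Clec12a and Clec2d) without wt replicate 3, ko replicate 1 or ko replicate 2. Clec16a left these lower members with upper quartile or library total scaling, by limma on log2 FPKM, with a replicate block and with no filter. Clec4a3 joined them with RLE scaling, by DESeq2, with a replicate block and with no filter, which also added Clec4a2 and Clec2l. The count of higher members went from 1 to 0 without wt replicate 1, wt replicate 2, ko replicate 1 or ko replicate 3. On the 4 libraries left without wt replicate 1 and ko replicate 3, a choice made after seeing the data, DESeq2 called 7 members at an adjusted p under 0.05, all lower in ko, and edgeR called 0. The median log2 fold change of the 20 tested members was -0.36, and that of all genes tested was 0.02. Among the 15 well-counted members, 14 were lower and the median was -0.39. With 3 against 3 libraries, an exact permutation test of a single member cannot give a two-sided p below 0.1.

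The family total did not separate the groups. It was 3367, 5096 and 4383 CPM in wt replicates 1, 2 and 3 and 3794, 3053 and 4433 CPM in ko replicates 1, 2 and 3. Without Clec4e and Clec4d, it was 1639, 1652 and 1553 CPM in wt and 1286, 968 and 1530 CPM in ko, with every library labelled ko below wt, ko replicate 3 by a small margin. The scale on which members are compared sets much of this. Libraries were also scaled to the summed reads of the 10 macrophage markers instead of TMM, a choice made after seeing the data. Cd14 (mean of 203793 reads) and Itgam (90901) had the most reads of these markers and so weighed most in that scale. On it, 14 of the 20 tested members had positive log2 fold changes. The member median was 0.10 and that of all genes tested was 0.54. With TMM and on this scale alike, 17 of 20 members lay below the median of all genes. A change of scale moves all genes by nearly the same amount, so this count could hardly differ and is no check.

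With TMM scaling, the genes that carry the signal of the activating receptors were mostly lower in estimate along with the receptors. Of 23 adaptors and kinases, 19 had negative log2 fold changes, 10 of them at an unadjusted p under 0.05, which 8.31% of all genes passed in that direction, with a median of -0.32. Fcer1g, the FcRγ chain, had 1018, 906 and 875 FPKM in wt and 749, 628 and 837 FPKM in ko. All of its libraries labelled ko lay below wt, with a log2 fold change of -0.47 ± 0.19 (SE) and an adjusted p of 0.328 by edgeR. Tyrobp, the DAP12 chain, had 1433, 1149 and 1091 FPKM in wt and 1024, 801 and 1121 FPKM in ko, with a log2 fold change of -0.45 ± 0.22 (SE) and overlapping groups. Syk, the kinase that both chains recruit, was flatter, with 75.8, 67.0 and 62.5 FPKM in wt and 63.8, 64.6 and 65.0 FPKM in ko. Its log2 fold change was -0.23 ± 0.15 (SE). Card9, which links Syk to NF-kB, had 62.4, 33.8 and 41.4 FPKM in wt and 30.6, 21.9 and 36.1 FPKM in ko, with overlapping groups. Its log2 fold change was -0.76 ± 0.30 (SE), and -0.46 without wt replicate 1. Malt1, the protease partner of Card9, went the other way at 0.60 ± 0.27 (SE), and no gene of the list passed an adjusted p of 0.05 by edgeR. These estimates too depend on the scale. Scaling to the macrophage markers moved the median of all genes tested to 0.54 and turned Tyrobp (0.0055) and Syk (0.27) positive. The highest estimates over the alternatives were -0.008 for Fcer1g and -0.34 for Card9. Directions in the signalling lists were not counted on that scale.

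The genes listed as brakes on this signal were Ptpn6, Ptpn11, Inpp5d, Cbl, Cblb, Sh3bp2, Dok1, Dok2 and Ubash3b. Sh3bp2 and Ptpn11 can also promote such signaling, so the list does not hold brakes alone. Of these 9 genes, 8 had negative log2 fold changes, and the median was -0.43. At an unadjusted p under 0.05, 5 were lower (Ptpn6, Inpp5d, Cbl, Sh3bp2 and Dok2), a direction in which 8.31% of all genes passed. Ptpn6, the phosphatase SHP-1 that inhibitory receptors recruit, was at -0.94 ± 0.29 (SE), while Cblb, a ubiquitin ligase that limits Syk signaling, was at 0.91 ± 0.25 (SE). Of 15 genes that these receptors are known to induce, 9 had positive and 6 negative log2 fold changes, with a median of 0.12. At an unadjusted p under 0.05, 4 of them were higher (Tnf, Csf2, Il12b and Egr2) and 0 lower. In the higher direction, 6.9% of all genes passed. Tnf, a cytokine of activated macrophages, was at 0.72 ± 0.16 (SE), with every library labelled ko above wt. None of the genes listed as brakes and none of the induced genes passed an adjusted p of 0.05 by edgeR.

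C-type lectin-like genes without a Clec symbol were split. Of the 37 in the table, 29 were tested, 17 with negative and 12 with positive log2 fold changes and a median of -0.16. Among those lower in estimate were the thrombomodulin gene Thbd at -0.98 ± 0.21 (SE) and Cd93 at -0.58 ± 0.22 (SE). The mannose receptor Mrc1 was at -0.28 ± 0.25 (SE), and Mgl2, the neighbor copy of Clec10a, at -0.44 ± 0.37 (SE), close to the value of Clec10a itself. Ly75, the endocytic receptor DEC-205, was at 0.93 ± 0.21 (SE) and the activation antigen Cd69 at 0.81 ± 0.24 (SE). None of these passed an adjusted p of 0.05 by edgeR.

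**Figure D4:**
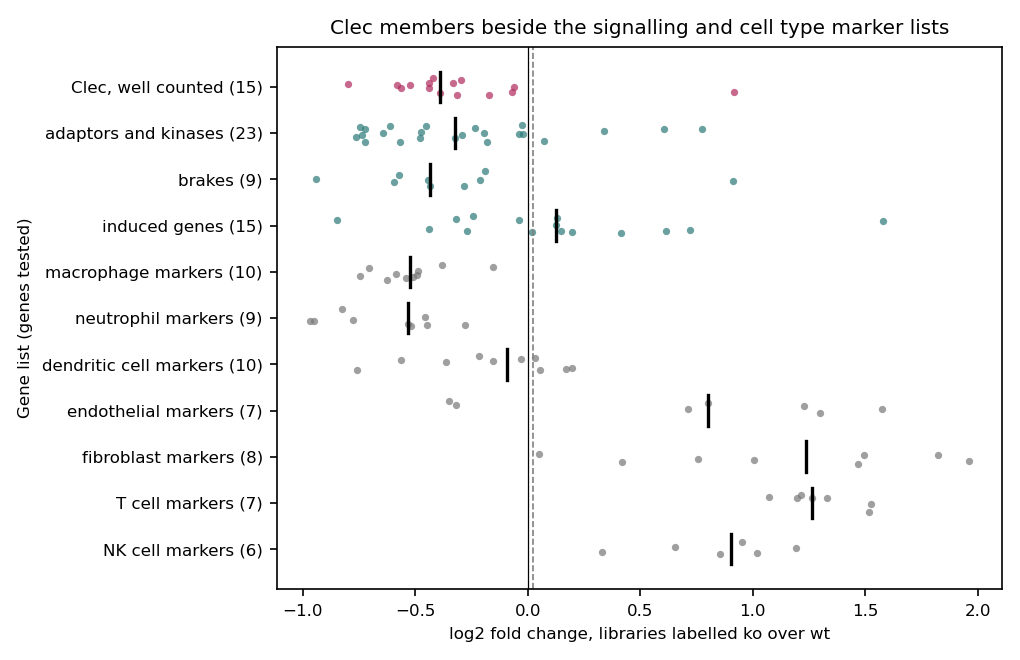
Log2 fold change of the libraries labelled ko over wt for each tested gene of the well-counted Clec members, the signalling lists and the cell type marker lists, with 1 point per gene, a black bar at the list median and a dashed line at the median of all genes tested (0.02). The Clec median (-0.39) lies near those of adaptors and kinases (-0.32), macrophage markers (-0.53) and neutrophil markers (-0.53), and the T cell (1.26) and fibroblast (1.24) medians lie on the other side of 0; with scaling to the macrophage markers the median of the 20 tested Clec members was 0.10.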

How the data were processed

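RNA of 6 libraries (3 titled wt, 3 titled ko) had been sequenced and counted by the authors. The authors deposited raw counts, as whole numbers for each gene, and FPKM, which the authors computed as count per length and library total (1 length per gene fitted all libraries within 0.001 for 19899 of 19899 genes). The build is mm10 per the submitters' processing notes, and the aligner, counter and annotation were not given in the sources used here. Groups came from the sample titles.

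Counts were filtered with filterByExpr, scaled by TMM and compared with edgeR 4.0.16 (glmQLFit, glmQLFTest, R 4.3.3) in all 6 libraries, with Benjamini-Hochberg adjustment over the 13884 genes tested. An adjusted p under 0.05 was a call. CPM are TMM-scaled, log2 CPM used a prior count of 2, and the standard error is the absolute log2 fold change over the square root of F. Alternatives were RLE, upper quartile and library total scaling, no filter or a mean count of at least 10, DESeq2 1.42.0, limma 3.58.1 on log2(FPKM + 1) or log2(FPKM + 0.1), which shrinks changes of low genes, the replicate number as a block, and each library left out. Ranges over the alternatives also take in the fits chosen after seeing the data, which are named below. The test was also run on simulated counts with 200 changed genes. Their changes were larger than any estimated for a member in the main fit, so smaller changes were not checked. Replicate libraries differed by more than sampling noise.

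The members and all lists (signalling genes, other lectins, and markers of macrophages, dendritic cells, neutrophils, platelets, endothelium, fibroblasts, T, NK and B cells and epithelium) were chosen with earlier results of these data known. Values per library were given for the 8 members of highest mean FPKM, up to 5 of smallest unadjusted p in each direction (only 3 had positive estimates), 10 receptors and 4 signalling genes set by name, and Npm1. Positions are from GENCODE for GRCm38, matched by symbol and NCBI Gene number, and promoters from RefSeq GRCm38.p6.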

Additional observations from a re-analysis of the deposited data

How the results depend on the processing

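No member passed an adjusted p of 0.05 by edgeR or limma under any alternative or by DESeq2 on all 6 libraries. For Clec11a, Clec12b, Clec1a, Clec2g, Clec4a4, Clec4b1 and Clec9a, DESeq2 on all 6 libraries gave no adjusted p. Chosen after seeing the data were scaling to the macrophage markers, DESeq2 without wt replicate 1, and edgeR and DESeq2 without wt replicate 1 and ko replicate 3. That last fit by DESeq2 called 7 members, all lower in ko (Clec12a, Clec2d, Clec4a1, Clec4a2, Clec4a3, Clec4e and Clec4n), with 10 lower and 0 higher at an unadjusted p under 0.05, where edgeR on the same 4 libraries called 0, with 8 lower and 0 higher. DESeq2 without wt replicate 1 gave 0 higher. With 1 library left out, by edgeR, the count of lower members at an unadjusted p ran from 2 to 6, the count of higher members from 0 to 1 (0 without wt replicate 1, wt replicate 2, ko replicate 1 or ko replicate 3), and the member median from -0.55 to -0.20. The member median was -0.17 on log2(FPKM + 1), and scaling to the macrophage markers gave 0.10, with 0 lower and 2 higher members at an unadjusted p and 3 members without overlap.

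Library totals only moved the median of all genes tested to 0.17, log2(FPKM + 0.1) to 0.16 and macrophage scaling to 0.54. In each, 17 of 20 members lay below it, as with TMM. A change of scale moves members and other genes nearly alike, so this count is no check. The sign turned for Clec4e with library totals (0.072), log2(FPKM + 1) and + 0.1 (both 0.14), with 1 library left out (-0.32 to 0.14, positive without wt replicate 2, wt replicate 3 or ko replicate 2) and with macrophage scaling (0.43). It turned for Clec5a with library totals (0.071), FPKM (0.099 and 0.11), with 1 library left out (-0.26 to 0.041, positive without wt replicate 2 or 3) and with macrophage scaling (0.44), and for Clec4d with FPKM (both 0.014), with 1 library left out (-0.35 to 0.089, positive without wt replicate 2) and with macrophage scaling (0.35). Clec9a turned with upper quartile (0.0084) and library total scaling (0.11), FPKM (0.041 and 0.12), with 1 library left out (-0.27 to 0.20, positive without wt replicate 3 or ko replicate 1) and with macrophage scaling (0.46). Clec11a turned with 1 library left out (-0.20 to 0.77, negative without wt replicate 1 or ko replicate 1), by DESeq2 without wt replicate 1 (-0.22), and without wt replicate 1 and ko replicate 3 (-0.021 by edgeR, -0.054 by DESeq2). Macrophage scaling also turned Clec4n (0.19), Clec7a (0.14), Clec4a1 (0.027), Clec4a2 (0.068), Clec16a (0.17), Tyrobp (0.0055) and Syk (0.27), as well as Clec2g and Clec2i. The cause was not tested. Same-numbered replicates did not pair (correlations of deviations -0.24, 0.06 and -0.34), and the fit with a replicate block called 0 members, with 4 lower and 1 higher at an unadjusted p and a median of -0.37. Low reads limit Clec12b, Clec11a and Clec9a.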

Other observations

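The marker lists not described above gave mixed values. The 5 tested B cell markers had 3 higher and 2 lower estimates in the libraries labelled ko, with a median of 0.00, and a summed level of 6.26 to 36.1 CPM in wt and 11.8 to 58.0 CPM in ko. The 4 tested epithelial or carcinoma markers had 2 higher and 2 lower estimates, with a median of 0.17, and a summed level of 36.1 to 138 CPM in wt and 129 to 192 CPM in ko. Of the 9 tested C-type lectin-like genes of the Klr group, 6 had positive log2 fold changes, from 0.12 (Klrk1) to 1.96 (Klrb1a), with Klrd1 at 0.33, Klrb1c at 1.02, Klrc1 at 1.19 and Klrg1 at 1.52, and 3 had negative ones, Klrb1b at -0.02, Klra2 at -0.38 and Klra17 at -0.41. None passed an adjusted p of 0.05 by edgeR.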
